A study of Arabidopsis thaliana with 18 samples.

Results

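Small RNAs of 22 nt were counted per gene in Arabidopsis thaliana seedlings of the double mutant dcl4-2 dcl2-1, which carries mutant alleles of the Dicer-like genes DCL4 and DCL2, on medium with the stress hormone abscisic acid (ABA) and on plain MS medium. The comparison covered 6 of the 18 libraries of the study and all 32420 genes of its table: 3 libraries of dcl4-2 dcl2-1 on MS with 1 µM ABA, set against 3 libraries of dcl4-2 dcl2-1 on MS alone. Both groups lack functional DCL4 and DCL2 by genotype, so the comparison shows the 22-nt ABA response that is left without these enzymes. The sets used for contrast were dcl4-2 (3 libraries on ABA, 3 on MS) and the wild type Col-0 (3 on ABA, 3 on MS). The sample labels give whole seedlings aged 14 days for every group, while the general growth field of the same labels describes untreated plants raised on soil to a greater age. The sample labels were followed. The labels number the libraries as replicates and say nothing of separate plates or seedling pools, so p-values measure the spread between these libraries, which may be technical. Small RNA levels do not report marker transcripts, so the tissue label was not checked.

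Dicer-like enzymes cut double-stranded RNA into small RNAs of set lengths. DCL1 releases microRNAs (miRNAs) from the hairpin transcripts of MIRNA loci, mostly as 21-nt products, DCL4 makes 21-nt small interfering RNAs (siRNAs), DCL2 makes 22-nt siRNAs and DCL3 makes 24-nt siRNAs. In plants that lack DCL4, DCL2 takes over many of its substrates, and the 22-nt siRNAs made there can set off further rounds of siRNA production. ABA is the hormone of drought and osmotic stress, and it is known to change the transcription of many MIRNA loci and stress genes.

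Values are normalised reads: the reads of a library divided by its size factor, a scaling number set over all 18 libraries. The table holds group means, from which the reads of each library were recovered, and the libraries of a group are called A, B and C by falling size factor. Depth was low and uneven. The ABA libraries held 19697, 16818 and 3263 reads of 22 nt in genes, and the MS libraries held 13847, 15787 and 813. One read was therefore worth 0.782, 0.907 and 5.53 normalised reads in ABA libraries A, B and C, against 0.913, 1.01 and 10.5 in MS libraries A, B and C. MS library C stood apart from the others: over the 79 genes with at least 60 reads in all, its log2 values had a Pearson correlation of 0.631 with MS library A and 0.516 with MS library B, against 0.823 between A and B (across genes, which are not independent replicates). Protein-coding genes took 57.7% of its reads, against 39.4% and 26.3% in MS libraries A and B. DCL4 and DCL2 had 0 reads in all 6 libraries, which checks nothing, since small RNAs from a gene do not report its transcript.

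Few genes passed the threshold. With this depth, the number of calls does not measure how wide the 22-nt response was. Leaving out 1 library gave 5 to 14 genes higher and 0 to 21 lower. By limma on log2(normalised reads + 1), 8 genes were higher and 1 was lower on ABA at an adjusted p under 0.05, of 5697 tested, or 0.140% and 0.0176%. At an unadjusted p under 0.05 the counts were 302 higher (5.30%) and 143 lower (2.51%), and the median log2 fold change over all tested genes was 0.05. The higher genes were the MIRNA loci MIR319c, MIR403, MIR400 and MIR159b, the nitrate reductase genes NIA1 and NIA2, and the chloroplast features ATCG00870 and ATCG01270; the lower gene was the dehydrin gene HIRD11. Without the shallowest library of each group, the counts were 7 higher and 2 lower, and 8 of the 9 genes were called again. On simulated counts with these unequal depths, most changed genes were missed. False calls were also more frequent there than the threshold states, so single calls are to be read with that in mind. The authors' deposited table, which rests on their own test, has 4 genes higher (MIR319c, MIR403, ATCG00870 and ATCG01270) and 1 lower (HIRD11) of 21457 with an adjusted p, or 0.0186% and 0.00466%.

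**Figure D1:**
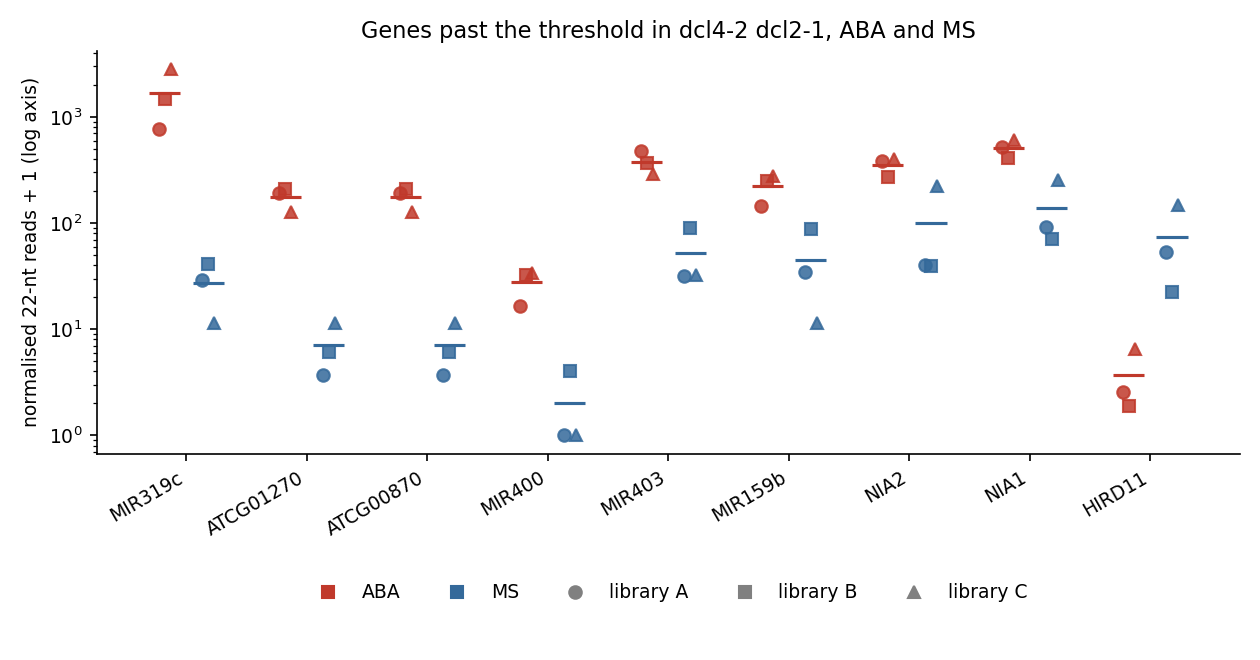
Normalised 22-nt reads + 1 per library (log axis) for the 9 genes past the threshold in dcl4-2 dcl2-1, with ABA on the left and MS on the right of each gene; marker shapes give libraries A, B and C and lines give means. MIR319c lies between 762 and 2830 normalised reads on ABA and between 10.5 and 40.4 on MS. The ABA and MS libraries do not overlap for any of the 9 genes, but these were chosen by the test on the same libraries, so this adds no support. Over all genes tested, the libraries did not overlap at 2.47% that were higher on ABA and 0.790% that were lower.

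The annotated products of the MIRNA loci that the results turn on are shown first, to let their seeds be compared. They were read from the RefSeq annotation of TAIR10.1, and capitals mark the seed, bases 2 to 8 from the 5′ end. The coordinates are chr2:17029870-17029890 (+) for miR319c, chr4:12353109-12353129 (+) for miR319a, chr1:6220813-6220833 (+) for miR159b-3p, chr2:19415077-19415098 (+) for miR403-5p, chr2:19415154-19415174 (+) for miR403-3p, chr1:11785947-11785967 (+) for miR400 and chr5:16775524-16775544 (-) for miR166e-3p.
miR319c: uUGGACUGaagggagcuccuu
miR319a: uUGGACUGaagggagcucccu
miR159b-3p: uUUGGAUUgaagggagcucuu
miR403-5p: uGUUUUGUgcuugaaucuaauu
miR403-3p: uUAGAUUCacgcacaaacucg
miR400: uAUGAGAGuauuauaagucac
miR166e-3p: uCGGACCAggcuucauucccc

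miR319c and miR319a share the seed UGGACUG, and the seed of miR159b-3p is UUGGAUU. All of these are annotated at 21 nt except miR403-5p, at 22 nt. The reads counted here were 22 nt long, so for the loci with a 21-nt annotation they differ in length from the annotated product, and the table does not say which arm they came from. Of the 17 tested MIRNA loci with a 22-nt product in the annotation, 1 was called higher (MIR403) and 0 lower. Of the 75 without one, 3 were called higher and 0 lower. Over all genes tested, 0.140% were called higher and 0.0176% lower. Tested loci without a read in the 6 libraries are not in these counts, which are too small to compare the classes.

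MIR319c gave the largest change. The miR319 family directs cleavage of transcripts of TCP transcription factors, which control leaf growth. MIR319c had 762, 1469 and 2830 normalised reads in ABA libraries A, B and C, against 28.3, 40.4 and 10.5 in MS libraries A, B and C. All 3 ABA libraries lay far above all 3 MS libraries, and the lowest of them was also the deepest. The log2 fold change was 5.93 ± 0.48 (SE), with a limma adjusted p of 3.9e-18. The second family locus with enough reads, MIR319a, had 58.6, 110.6 and 138.2 normalised reads on ABA, against 25.6, 44.4 and 0 on MS, without overlap. Its log2 fold change of 3.20 ± 0.79 missed the threshold (adjusted p = 0.0583). It passed in 7 of 19 alternatives (adjusted p between 0.00106 and 0.0482), while without MS library C, whose value was 0, it was 1.49 (adjusted p = 0.662).

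MIR403, whose miRNA targets the transcript of the antiviral Argonaute AGO2, had 473, 370.8 and 287.4 normalised reads on ABA, against 31.0, 89.8 and 31.5 on MS. The groups did not overlap, and the lowest ABA library exceeded the highest MS library. The log2 fold change was 3.02 ± 0.57 (adjusted p = 7.74e-04). With libraries scaled to an equal summed MIRNA level, it was 2.46 ± 0.57 and the adjusted p was 0.0608.

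MIR159b encodes a miRNA against MYB33 and MYB65, GAMYB-like transcription factors that act in ABA and gibberellin responses. It had 144.6, 247.5 and 276.4 normalised reads on ABA, against 33.8, 86.8 and 10.5 on MS, where the value of MS library C was a single read. The groups were apart in every pair of libraries. The log2 fold change was 2.72 ± 0.60 (adjusted p = 0.0129), and the call was lost without ABA library B (adjusted p = 0.12), ABA library C (0.16) or MS library C (1.97, adjusted p = 0.0925). Without both shallow libraries it was 1.78 (adjusted p = 0.367).

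MIR400 lies in an intron of a protein-coding gene, and its miRNA targets transcripts of pentatricopeptide repeat (PPR) proteins. It had 15.6, 31.7 and 33.2 normalised reads on ABA, against 0, 3.03 and 0 on MS. In reads these were 61 over the ABA libraries and 3 over the MS libraries, a ratio of 17.3 per size factor with an exact 95% binomial interval of 5.65 to 86.2, for counting error only. The limma log2 fold change was 4.06 ± 0.78 (adjusted p = 0.00126), while the authors' deposited table has an adjusted p of 0.0573.

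The nitrate reductase genes, which encode the enzyme that reduces nitrate to nitrite, gave the most abundant 22-nt reads of any protein-coding genes in these libraries. NIA1 had 526, 409.8 and 602.5 normalised reads on ABA, against 91.3, 69.6 and 251.9 on MS. NIA2 had 379.9, 268.4 and 403.5 normalised reads on ABA, against 39.2, 38.3 and 220.4 on MS. Both genes were without overlap between the groups, and for both MS library C was the highest of the MS libraries. The log2 fold changes were 2.10 ± 0.46 for NIA1 (adjusted p = 0.0129) and 2.30 ± 0.53 for NIA2 (adjusted p = 0.0256). Neither gene passed when any 1 of ABA libraries A, B and C or MS libraries A and B was left out (adjusted p between 0.0627 and 0.16 for NIA1 and between 0.0663 and 0.172 for NIA2), and neither passed in the authors' deposited table (adjusted p = 0.955 each). Reads shared by these similar coding sequences could have been counted for both. As a share of all 22-nt reads in genes, the pair took 5.88%, 4.45% and 5.58% in the ABA libraries, against 1.03%, 0.678% and 5.54% in the MS libraries, so that the share of MS library C was at the level of the ABA libraries. Of the 16 genes listed for nitrate uptake and nitrogen assimilation, 10 were tested, and their median log2 fold change was 0.12. These 2 were called higher and 0 lower, against 0.140% and 0.0176% of all genes tested. The list was chosen with earlier results of these data known, so these calls are no result about the pathway.

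ATCG00870 and ATCG01270, chloroplast-encoded features, had the same reads in every library, 504 in all, so they cannot be told apart. Each had 190.7, 206.7 and 127.1 normalised reads on ABA, against 2.74, 5.04 and 10.5 on MS. The MS values stand for 3, 5 and 1 reads. The log2 fold change was 4.75 ± 0.73 (adjusted p = 6.14e-06), and the call held in every alternative run. No other chloroplast feature was called. Of the 83 tested, this pair included, 62 had a log2 fold change above 0 and 21 below, with a median of 0.49, while 50.4% of all genes tested lay above 0 and 37.3% below. At an unadjusted limma p under 0.05, 12 were higher and 3 lower, against 5.30% and 2.51% of all genes tested. The libraries did not overlap at 10 features that were higher on ABA and 1 that was lower, against 2.47% and 0.790% of all genes tested. Without MS library C alone, 50 lay above 0 and 33 below (median 0.21), against 2442 and 2501 of 5655 genes tested. Without ABA library C alone the split was 64 and 19 (median 0.84), and without both it was 62 and 21 (median 0.49). The most abundant, ATCG00020, had 532, 563 and 276.4 normalised reads on ABA, against 347.8, 301.7 and 346.3 on MS, with overlap (log2 fold change 0.39 ± 0.45, adjusted p = 0.977).

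HIRD11, a small histidine-rich dehydrin, was the gene that fell. Dehydrins are hydrophilic proteins that protect cells during water loss, and many are transcribed in response to ABA. HIRD11 had 1.56, 0.907 and 5.53 normalised reads on ABA, against 52.9, 21.2 and 146.9 on MS. On ABA these were 2, 1 and 1 reads, and on MS 58, 21 and 14 reads. The log2 fold change was -4.15 ± 0.83 (adjusted p = 0.0024), and without ABA library B it was -3.78 with an adjusted p of 0.0627. Of the 8 dehydrin genes listed, 5 were tested and HIRD11 was the only call, against 0.140% called higher and 0.0176% lower of all genes tested. This list, too, was chosen with earlier results known. RAB18, the ABA-induced dehydrin, had 1 read in each of ABA libraries A and C and 0 in the 3 MS libraries.

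**Figure D2:**
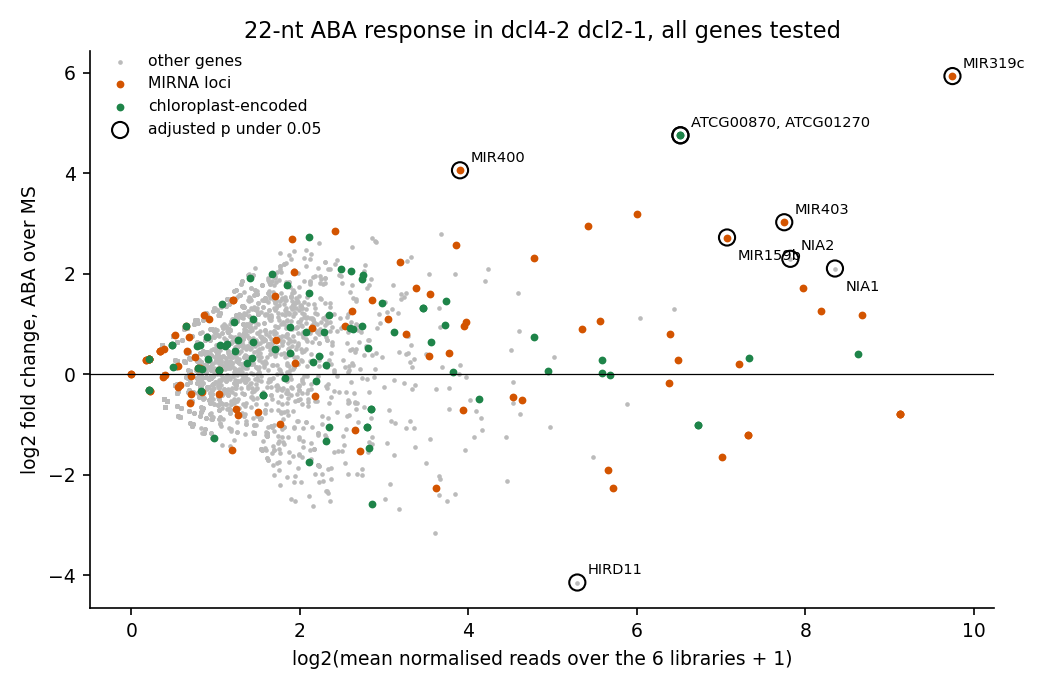
Log2 fold change (ABA over MS) against log2 of the mean normalised reads over the 6 dcl4-2 dcl2-1 libraries + 1, for the 5697 genes tested; orange points are MIRNA loci, green points are chloroplast-encoded features and black rings mark adjusted p under 0.05. MIR319c stands at the upper right with a log2 fold change of 5.93, and HIRD11 is the ringed gene below 0, at -4.15.

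Next to the threshold, 6 of the 10 genes with the smallest p that did not pass had 0 reads in all 3 ABA libraries and few on MS. CAO, a subunit of the chloroplast signal recognition particle, had 0 in the 3 ABA libraries, against 2.74, 3.03 and 10.5 normalised reads on MS (adjusted p = 0.0634), or 3, 3 and 1 reads. AT1G49700, a gene of unknown function, had 2.35, 0.907 and 0 normalised reads on ABA, against 16.4, 5.04 and 42.0 on MS (adjusted p = 0.0584). In the opposite direction, ATCG00560 had 2.35, 6.35 and 11.1 normalised reads on ABA and 0 in the 3 MS libraries (adjusted p = 0.0969). Most of these values stand for few reads: the level of 3 reads is 2.35, 2.72 and 16.6 normalised reads in the ABA libraries and 2.74, 3.03 and 31.5 in the MS libraries.

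Over the MIRNA loci as a whole, the response was mixed. Of 178 loci, 110 had at least 1 read in the 6 libraries and 94 were tested. Of these, 4 were called higher and 0 lower, against 0.140% and 0.0176% of all genes tested. By direction, 59 had a log2 fold change above 0 and 33 below, and the median was 0.31, against 0.05 over all genes tested. Without the shallowest library of each group, 46 lay above 0 and 46 below, with a median of 0.00, and 3 loci were called higher and 1 lower. With only MS library C left out, 3 loci were called higher and 4 lower, of 7 higher and 5 lower over all genes tested. The libraries did not overlap at 13 loci that were higher on ABA and 1 that was lower, against 2.47% and 0.790% of all genes tested. The summed level of MIRNA loci was 5984 ± 1877 normalised reads on ABA, against 4537 ± 2730 on MS (SD, n = 3 each), a ratio of 1.32, with p = 0.4 by a two-sided exact permutation test, whose smallest possible p is 0.1. Over all genes the sums were 16228 ± 1569 on ABA and 12367 ± 3707 on MS, a ratio of 1.31 (exact permutation p = 0.3). Some loci had the same reads, such as MIR157a and MIR157b with 981 each. Reads that match several loci thus appear to have been counted at each, so these sums may count some reads more than once. Without both shallow libraries, the MIRNA ratio was 0.83 and the ratio over all genes 1.07.

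**Figure D3:**
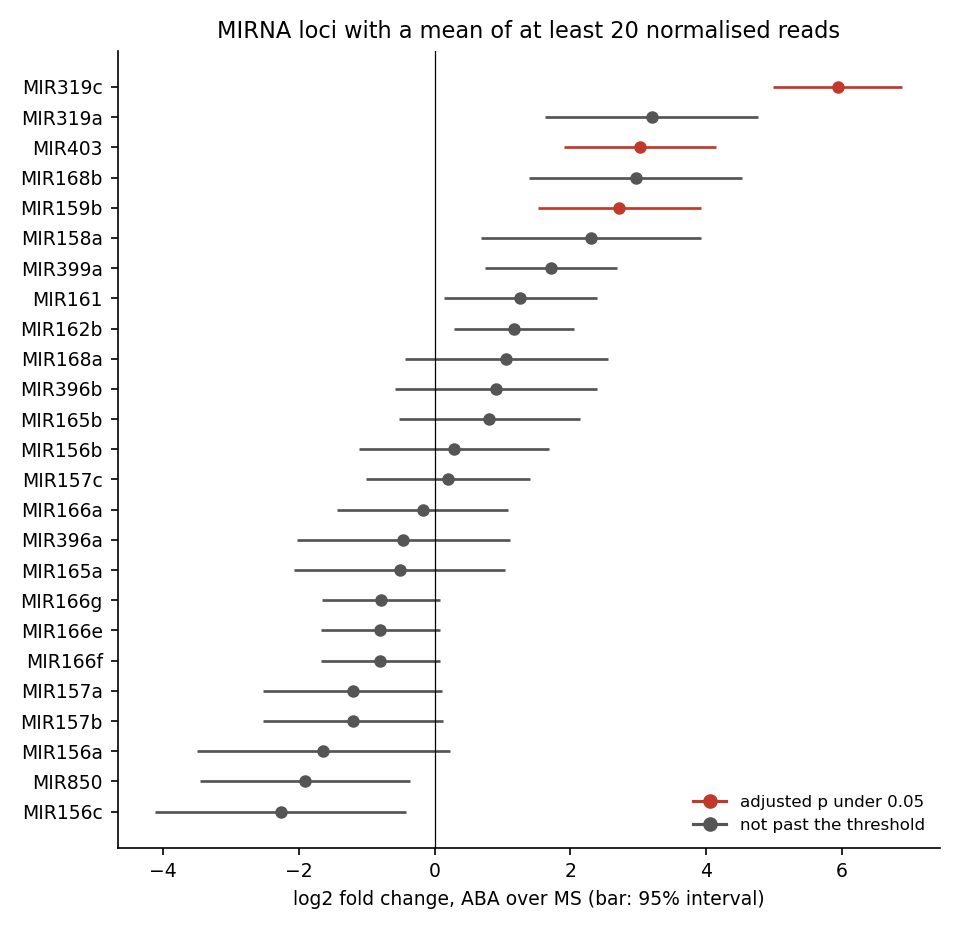
Log2 fold change (ABA over MS) with its 95% interval for the 25 MIRNA loci whose mean over the 6 dcl4-2 dcl2-1 libraries was at least 20 normalised reads; red marks adjusted p under 0.05. MIR319c, MIR403 and MIR159b are the loci past the threshold, and the intervals of MIR166e, MIR166f and MIR166g, centred near -0.80, reach across 0.

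Several abundant loci did not pass. MIR399a, whose miRNA targets the phosphate regulator PHO2, had 258.8, 253.9 and 646.8 normalised reads on ABA, against 134.2, 139.2 and 63.0 on MS. The groups did not overlap, and the log2 fold change was 1.71 ± 0.49 (adjusted p = 0.153); it passed in 1 alternative, the most even read solutions (adjusted p = 0.0479). MIR168b, one of the loci of the miRNA that targets AGO1, had 35.2, 46.2 and 127.1 normalised reads on ABA, against 18.3, 23.2 and 0 on MS, also without overlap (log2 fold change 2.96 ± 0.79, adjusted p = 0.0981). It passed in 4 of 19 alternatives (adjusted p between 0.00717 and 0.0463), while without MS library C it was 1.48 (adjusted p = 0.704). MIR168a overlapped between the groups, with 34.4, 38.1 and 116.1 normalised reads on ABA and 42.0, 35.3 and 10.5 on MS. MIR162b, whose miRNA targets DCL1, had 447.9, 478.7 and 657.8 normalised reads on ABA, against 262.9, 494.4 and 94.5 on MS, with overlap (adjusted p = 0.365). MIR161, a source of miRNAs against PPR transcripts, had 371.3, 268.4 and 342.7 normalised reads on ABA, against 217.3, 517.6 and 21.0 on MS. These groups overlapped too, and the MS libraries were widely spread (adjusted p = 0.509). MIR173, whose 22-nt miRNA triggers secondary siRNAs from TAS transcripts, had 6.25, 3.63 and 11.1 normalised reads on ABA, against 2.74, 7.06 and 0 on MS. The TAS loci themselves were not analysed here.

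On the other side, MIR166e, MIR166f and MIR166g had nearly identical reads and cannot be told apart. MIR166e had 312.7, 327.3 and 547.3 normalised reads on ABA, against 754, 1007 and 388.3 on MS. ABA library C lay above MS library C, so the groups overlapped (log2 fold change -0.80 ± 0.44, adjusted p = 0.681). MIR156a, one of the loci of the miRNA that holds back SPL transcription factors and the change from juvenile to adult growth, had 33.6, 15.4 and 5.53 normalised reads on ABA, against 237.3, 472.2 and 0 on MS. Over all 6 libraries its log2 fold change was -1.64 ± 0.94 (adjusted p = 0.711), and without MS library C it was -4.44 ± 0.70 (adjusted p = 2.41e-06). With that library kept, it passed under voom weights (-3.10, adjusted p = 4.14e-05) and with the most even read solutions (-3.93, adjusted p = 7.35e-05). The 0 of that library is itself one of several read combinations that give the deposited mean, chosen by the authors' deposited fold change, and in a library of 813 reads a count of 0 allows up to 31.5 normalised reads. MIR157a and MIR157b, further loci of this miRNA family, had the same reads in every library, 981 each. Each had 169.6, 68.9 and 22.1 normalised reads on ABA, against 250.1, 410.7 and 31.5 on MS, with overlap (log2 fold change -1.20 ± 0.66, adjusted p = 0.681). MIR850 had 16.4, 17.2 and 27.6 normalised reads on ABA, against 93.1, 78.7 and 63.0 on MS, without overlap (log2 fold change -1.91 ± 0.78, adjusted p = 0.427).

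The listed TCP, MYB, PPR, SPL, AGO1, AGO2 and HD-ZIP III targets gave few or no 22-nt reads in dcl4-2 dcl2-1 on either medium. The 8 listed TCP and MYB targets of miR319 and miR159 had 0 reads over the 6 libraries. The 22 listed PPR targets had 11 reads in 5 genes, with none past the threshold, and the 10 SPL genes had 2 reads. AGO2 had 0 reads, and AGO1 had 1 read in each of MS libraries A and B. Of the class III HD-ZIP genes, the leaf-polarity and vascular regulators that miR166 targets, 4 of 5 had 0 reads and HB-8 had 1.

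Nuclear photosynthesis genes were detected more widely. All 25 listed were tested. Of these, 19 had a log2 fold change below 0 and 6 above, against 37.3% below and 50.4% above over all genes tested, and the median was -0.79. None passed the adjusted threshold. At an unadjusted limma p under 0.05, 4 were lower, against 2.51% of all genes tested. RCA, the activase of Rubisco, had 14.9, 19.9 and 22.1 normalised reads on ABA, against 67.5, 31.3 and 104.9 on MS, without overlap (log2 fold change -1.64 ± 0.79, adjusted p = 0.592). The summed level of the list was 260.3, 233 and 116.1 normalised reads in the ABA libraries, against 436.4, 241.2 and 545.7 in the MS libraries, so that MS library C was the highest. Without MS library C alone the median was -0.67 with 22 of 25 below 0, without ABA library C alone it was -0.35 with 17 below, and without both it was -0.13 with 14 below. Voom weights gave -0.47 with 21 below, an equal summed level over genes -1.13 and an equal summed MIRNA level -1.22, each with 19 below.

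Whether the response differed from that of the wild type was tested as the difference of the ABA effects, dcl4-2 dcl2-1 minus Col-0; the 2 effects share no libraries. By limma, 10 genes had a higher difference (0.176% of 5697) and 0 a lower one (0%); at an unadjusted p under 0.05 these were 158 (2.77%) and 263 (4.62%), and limma with voom weights called 1 lower. NIA1 moved in opposite directions. It averaged 513 ± 97.0 normalised reads on ABA and 137.6 ± 99.5 on MS in dcl4-2 dcl2-1, against 68.5 ± 21.7 on ABA and 508 ± 356 on MS in Col-0 (SD, n = 3 each). The difference of the log2 fold changes was 4.79 ± 0.66 (adjusted p = 3.9e-07). NIA2 showed the same opposition, with a difference of 4.92 ± 0.76 (adjusted p = 8.6e-06), a log2 fold change of 2.30 in dcl4-2 dcl2-1 and -2.63 in Col-0. Both differences held in each alternative in which they could be fitted.

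MIR319c rose in both genotypes. It averaged 1687 ± 1051 normalised reads on ABA and 26.4 ± 15.03 on MS in dcl4-2 dcl2-1, against 2750 ± 1501 on ABA and 350.4 ± 171 on MS in Col-0 (SD, n = 3 each). The means of Col-0 thus stood higher on both media, and by more on MS. On ABA the libraries of the genotypes overlapped, with 762, 1469 and 2830 in dcl4-2 dcl2-1 and 2029, 1745 and 4475 in Col-0. The difference between genotypes within a medium was not tested. The log2 fold change was 5.93 in dcl4-2 dcl2-1 and 2.97 in Col-0, and the difference of 2.96 ± 0.68 passed (adjusted p = 0.0184). It was lost without ABA library B (adjusted p = 0.118) or ABA library C (2.49, adjusted p = 0.391) of dcl4-2 dcl2-1, and without both shallow libraries it was 1.96 (adjusted p = 0.182). It was also lost with a pseudocount of 5 (adjusted p = 0.2), no filter (0.772) or a filter of 5 normalised reads (0.0784).

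The other 7 differences from Col-0 came from genes with few or no reads in dcl4-2 dcl2-1. PHB, REV and PHV had 0 reads in all 6 of its libraries, HB-8 and SMXL4 had 1 read each, and SMXL5 and GLT1 stayed under 6 normalised reads in each library. In Col-0 the same genes had reads on MS and few or none on ABA. REV, a class III HD-ZIP gene, had 0.457, 0.547 and 0 normalised reads on ABA and 100.2, 16.1 and 177.4 on MS in Col-0. SMXL5, which acts in phloem formation, averaged 3.31 ± 2.39 normalised reads on ABA and 0.304 ± 0.527 on MS in dcl4-2 dcl2-1, against 2.50 ± 3.78 on ABA and 84.0 ± 67.8 on MS in Col-0. For these 7 genes the fitted difference depends on the pseudocount, and the change was that of Col-0. The Col-0 fall at GLT1, a glutamate synthase of nitrogen assimilation, had a log2 fold change of -4.43 ± 0.80. HB-8 passed the filter on low values only through the 3 MS libraries of Col-0 in which it was high, so its difference carries no weight. The difference was lost for GLT1 without ABA library B (adjusted p = 0.118) and with no filter (0.166), and for SMXL5 with a pseudocount of 5 (0.114) and no filter (0.59). It was lost for REV with no filter (0.0674), and for PHV in 7 alternatives, among them leaving out any 1 of ABA libraries A and B and MS libraries A and B (adjusted p between 0.0527 and 0.166 over the 7).

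**Figure D4:**
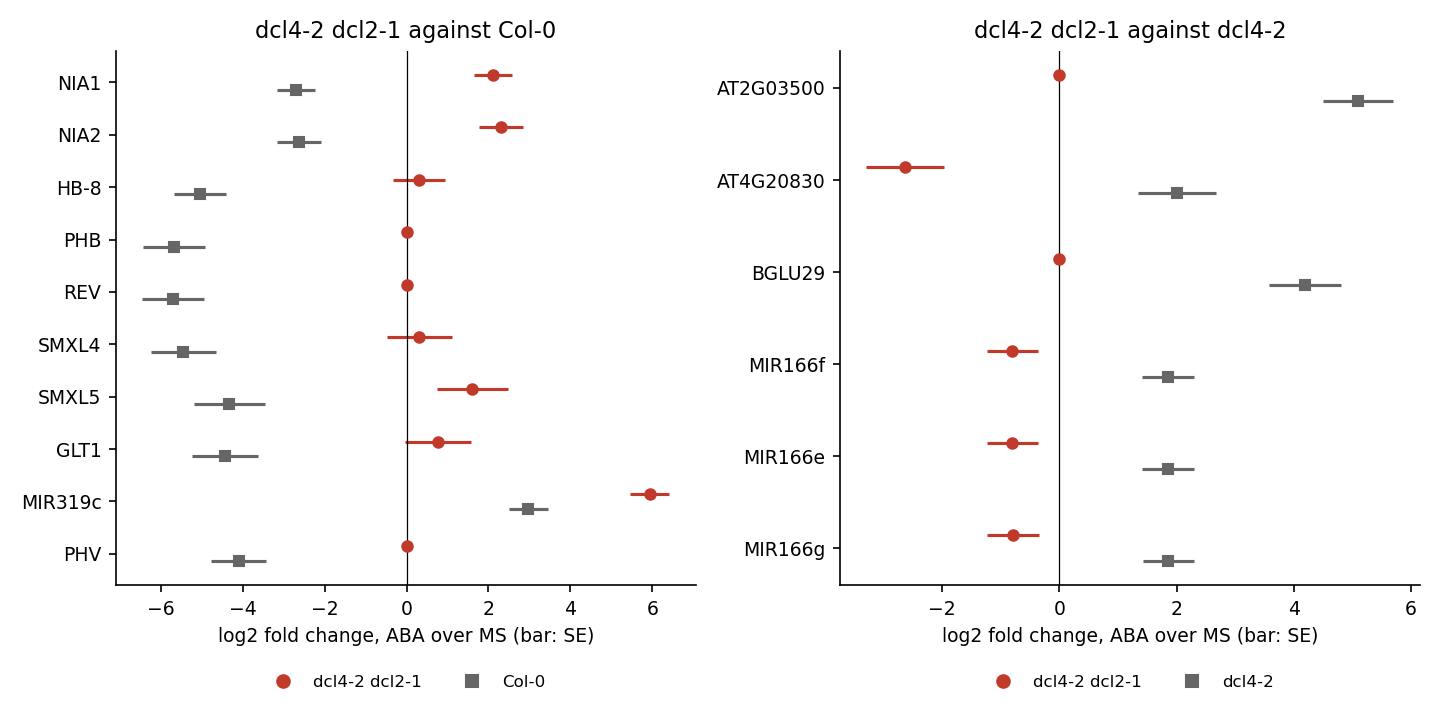
Log2 fold change (ABA over MS, bars SE) of the genes whose ABA effect differed between dcl4-2 dcl2-1 and Col-0 (left panel) or dcl4-2 (right panel), with dcl4-2 dcl2-1 drawn above the other genotype; points at 0 without a bar are genes with 0 reads in all 6 dcl4-2 dcl2-1 libraries. NIA1 and NIA2 lie on opposite sides of 0 in dcl4-2 dcl2-1 (2.10 and 2.30) and Col-0 (-2.69 and -2.63), and MIR319c lies above 0 in both.

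The other called genes had no detected difference in response from Col-0, with wide intervals. ATCG00870 and ATCG01270 had 4.75 in dcl4-2 dcl2-1 and 2.71 ± 0.73 in Col-0, a difference of 2.04 with a 95% interval of -0.01 to 4.10 (adjusted p = 0.667). MIR400 had 4.06 in dcl4-2 dcl2-1 and 3.10 ± 0.78 in Col-0, a difference of 0.96 (interval -1.23 to 3.16). HIRD11 had a log2 fold change of -4.15 in dcl4-2 dcl2-1 and -3.44 ± 0.83 in Col-0, a difference of -0.71 with a 95% interval of -3.04 to 1.62. MIR403 had 3.02 in dcl4-2 dcl2-1 and 2.14 ± 0.57 in Col-0, a difference of 0.88 (interval -0.70 to 2.47). MIR159b had 2.72 in dcl4-2 dcl2-1 and 2.44 ± 0.60 in Col-0, a difference of 0.28 (-1.41 to 1.98).

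Against dcl4-2, which keeps DCL2, 0 genes had a higher ABA effect in dcl4-2 dcl2-1 (0%) and 6 a lower one (0.105% of 5697). At an unadjusted limma p under 0.05 these were 100 (1.76%) and 518 (9.09%), and voom weights called 2 higher. The shift to lower effects depended on the scaling. The median difference over all genes tested was -0.39. It was 0.20 with an equal summed MIRNA level, 0.02 with an equal summed level over genes and 0.01 with voom weights. It stayed below 0 in the other alternatives. Depth differed as well: without NIA1 and NIA2, ABA libraries A, B and C of dcl4-2 held 390890, 245292 and 19915 reads in genes. AT2G03500, a homeodomain-like gene, and BGLU29, a beta-glucosidase gene, had 0 reads in all 6 dcl4-2 dcl2-1 libraries. In dcl4-2, AT2G03500 had 29.1, 23.9 and 52.2 normalised reads on ABA and 0 in the 3 MS libraries. BGLU29 had 21.0, 21.1 and 11.6 on ABA and likewise 0 on MS there. Neither gene would have passed the filter on low values without these 3 ABA libraries of dcl4-2, in which it was high, so both had to differ and these calls carry no weight. AT4G20830, a berberine bridge enzyme-like gene, had 0 in the 3 ABA libraries of dcl4-2 dcl2-1 and 9.13, 1.01 and 10.5 normalised reads on MS, against 1.74, 2.50 and 5.80 on ABA and 0 in the 3 MS libraries of dcl4-2. The MS values of dcl4-2 dcl2-1 stand for only 10, 1 and 1 reads. The difference of AT4G20830 was lost in 4 alternatives, a pseudocount of 5, no filter, an equal summed MIRNA level and voom weights (adjusted p between 0.0664 and 0.211). That of BGLU29 was lost in 3, both scalings and voom weights (adjusted p between 0.132 and 0.19).

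The MIR166e, MIR166f and MIR166g trio, with nearly identical reads, made up the other 3. MIR166e averaged 395.8 ± 131.4 normalised reads on ABA and 716.4 ± 311.1 on MS in dcl4-2 dcl2-1, against 1543 ± 579 on ABA and 563.6 ± 423.6 on MS in dcl4-2 (SD, n = 3 each). The difference of the log2 fold changes was -2.65 ± 0.62 (adjusted p = 0.0435), and it was lost without any 1 of ABA libraries A and B and MS libraries A and B of dcl4-2 dcl2-1 (adjusted p between 0.0804 and 0.165) and under both alternative scalings, a pseudocount of 5, no filter or a filter of 5 (adjusted p between 0.126 and 0.63). MIR319c rose in dcl4-2 as well, by a log2 fold change of 4.62 ± 0.48, and its difference of 1.31 had an interval of -0.04 to 2.66. For NIA1 and NIA2 the difference could not be fitted, since their reads in dcl4-2 on ABA were too many to be resolved per library. The authors' means were 152172 normalised reads on ABA and 7435 on MS for NIA1 in dcl4-2, beside 513 and 137.6 in dcl4-2 dcl2-1. For NIA2 they were 107247 on ABA and 4013 on MS in dcl4-2, beside 350.6 and 99.3 in dcl4-2 dcl2-1.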

How the data were processed

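The deposited table gives 1 value per gene and group for 22-nt reads, headed TPM per the file headers. The deposited signal was found, from its values, to be what the authors made as the mean, over the 3 libraries of a group, of whole reads divided by 1 size factor per library: the values of a group are sums of 3 fixed steps shared by all genes, and the step of 17 of the 18 libraries equals the size-factor ratio of a single gene within 1e-12. No gene length and no per-million total enters. The fixed design assumed RPM, and the same test was kept. The submitters' processing notes list Bowtie 1.2.2, SAMtools 1.9, DESeq2 and the TAIR10 build, with no step assigned to any of them. How mismatches and reads with several matches were handled is not given in the sources used. The log2 fold changes, p-values and adjusted p-values in the same table were made by the authors.

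Reads per library were recovered by solving each group mean for 3 whole numbers. In dcl4-2 dcl2-1 on ABA each of the 32420 genes had 1 solution. On MS, 35 had several: for 33 the solution that gave the authors' deposited fold change was taken, and for 2 the most even. NIA1 and NIA2 were not searched in dcl4-2 on ABA. Libraries carry no replicate number. No library of dcl4-2 dcl2-1 was a copy of another: within each group, read counts differed beyond Poisson sampling for all pairs, with 3.27 to 6.75 as the chi-square averaged over genes.

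Genes with at least 1 normalised read in at least 3 of the 18 libraries (5697 of 21459 with any read) entered a linear model of log2(normalised reads + 1), fitted in R 4.3.3 by limma (version 3.58.1) with a trended prior, 1 mean per group and all 6 groups sharing the spread. P-values are two-sided and adjusted by Benjamini-Hochberg over all genes tested, with a threshold of 0.05. The fit was tried on simulated counts with these unequal depths and the same spread setting for all genes. The mean estimate had the right direction for each size of change. Most changed genes were not called, and false calls were more frequent than the nominal share. The difference in depth between libraries is not weighted in this fit; voom and array weights were alternatives. On this scale the fold change of genes with few reads depends on the pseudocount, and a 0 in a shallow library can make it larger or smaller than the ratio of the means.

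Genes were named by rule: all past the threshold, the 15 most abundant features, 10 next to the threshold, MIRNA loci averaging at least 20, the extremes of each list, and a set of silencing and nitrate genes. The members and lists were chosen with earlier results of these data known. Of the gene IDs, 31722 matched the RefSeq gene table of TAIR10.1. Intervals and floors of 3 reads cover counting error only, since the reads carry no molecular identifiers.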

Additional observations from a re-analysis of the deposited data

Results flagged for a closer look

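The interaction term in limma, between dcl4-2 dcl2-1 and another genotype, passed the threshold for the following genes, given as the difference of log2 fold changes. Against Col-0 the differences were 4.79 for NIA1, 4.92 for NIA2, 2.96 for MIR319c, 5.35 for HB-8, 5.67 for PHB, 5.69 for REV, 4.10 for PHV, 5.76 for SMXL4, 5.93 for SMXL5 and 5.19 for GLT1. Against dcl4-2 they were -5.09 for AT2G03500, -4.63 for AT4G20830, -4.19 for BGLU29, -2.66 for MIR166f, -2.65 for MIR166e and -2.65 for MIR166g. PHB, REV, PHV, AT2G03500 and BGLU29 had 0 reads in all 6 dcl4-2 dcl2-1 libraries. HB-8, AT2G03500 and BGLU29 would not have passed the filter on low values without the libraries in which each was high. The differences of these genes carry no weight. Those of MIR319c, PHV, REV, SMXL5, GLT1, AT4G20830 and the MIR166 loci were lost in some alternatives.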

How the results depend on the processing

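MIR319c, ATCG00870 and ATCG01270 passed in every alternative run, the authors' test included, and MIR400 in every limma alternative. For the other calls and the differences between genotypes, alternatives that ended a call are given beside the gene in the report or here; the causes were not tested. NIA1 and NIA2 were also lost with a pseudocount of 5, no filter, an equal summed MIRNA level, only the 2 compared groups or no dcl4-2 groups in the fit (adjusted p between 0.0578 and 0.81), MIR159b in the first 3 of these (0.0906 to 0.351), and HIRD11 with no filter (0.146). With an equal summed level over genes, NIA2 was lost too (limma log2 fold change 1.91, adjusted p = 0.0729). Genes higher and lower on ABA numbered 5 and 2 with a pseudocount of 5, 5 and 0 with no filter (21459 genes tested, so a heavier adjustment), 18 and 4 with a filter of 5 (951 genes tested), 4 and 1 with an equal summed MIRNA level, 9 and 8 with an equal summed level over genes, 6 and 2 with voom weights, and 4 and 1 by the authors' test. Leaving out 1 library gave 5 to 14 higher and 0 to 21 lower; without MS library A 13 were lower, without MS library B 21 and without MS library C 5. Chosen after seeing the data were 3 more alternatives: without both shallow libraries (7 and 2), array quality weights (10 and 5) and the most even solutions (10 and 3). Against Col-0, no filter gave 5 higher; 1 lower was called with a filter of 5, voom weights, array weights or the most even solutions, and 2 without both shallow libraries; leaving out 1 library gave 8 to 10 higher and 0 to 4 lower. Against dcl4-2, the higher count was 1 under each scaling, array weights and the most even solutions and 2 with voom; the lower count was 2 with a pseudocount of 5 or no filter, 1 and 2 under the MIRNA and gene scalings, 13 with voom, 19 without both shallow libraries, 26 with array weights and 11 with the most even solutions; leaving out 1 library gave 0 to 1 higher and 3 to 18 lower. The ratios of summed levels ran from 1.14 to 1.53 over all genes and from 1.01 to 1.88 over MIRNA loci when 1 library was left out. MIR156a had a log2 fold change of 0.0038 without MS library B, a change of sign, and of -4.44 without MS library C. Scaling to an equal summed MIRNA level moved the median of all genes by 0.10 on the log2 scale, a filter of 5 by 0.38 and voom weights by -0.36. A count model on the recovered reads (planned) was not run, as the deposited values are group means. No paired analysis was possible because the columns carry no replicate numbers. Depth limits all of this: in MS library C, 1 read is worth 10.5 normalised reads.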

Other observations

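Genes of ABA signalling and ABA response gave few 22-nt reads in dcl4-2 dcl2-1: 10 of 27 listed had any read, 22 reads in all, and none of the 6 tested passed. P5CS1, an enzyme of proline synthesis, had 1, 2 and 0 reads in ABA libraries A, B and C, against 0 in the 3 MS libraries. Of 23 genes of the silencing machinery, 2 had reads. The summed level of mitochondrion-encoded features was 121.2, 134.2 and 94.0 normalised reads on ABA, against 147.9, 131.2 and 42.0 on MS. Of 67 tested, 28 had a log2 fold change above 0 and 29 below, against 50.4% and 37.3% of all genes tested, and 0 passed by limma. At an unadjusted limma p under 0.05, 2 were higher and 0 lower, against 5.30% and 2.51% of all genes tested. Pseudogenes took 20.4%, 17.4% and 22.7% of the reads in the ABA libraries, against 14.1%, 17.7% and 9.84% in the MS libraries (exact two-sided permutation p = 0.2).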
